A study of Mus musculus with 20 samples.

Results

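Cultured hepatocyte organoids were set against regenerating mouse liver 24 h after partial hepatectomy (PHx, in which 70% of the liver is cut away), the time used here for entry into DNA replication. The comparison rested on 4 of the 20 libraries of the series: 2 of organoids (Hep-Org) and 2 of 24 h liver (PHx_24h). Its members were the 10737 of 54532 listed genes that reached 1 FPKM (fragments per kilobase of exon and M reads, where M is 1000000) in at least 2 of those 4 libraries. The other 16 libraries, from undamaged liver and from 7 further times after PHx with 2 per group, only helped to estimate the spread between replicates, except where undamaged liver, 48 h and 72 h are named. Every animal was C57BL/6. The 24 h libraries came from hepatocytes isolated fresh from the operated liver, and replicate 1 alone also carries the label primary hepatocyte. The Hep-Org libraries came from isolated hepatocytes embedded in Matrigel, a gel of basement membrane proteins, and taken during passage. The sources used here do not give the passage number, the culture medium, the state of the donor liver, or the age and sex of the animals. The series text describes a second submission that adds to the first, and 24 h replicate 2 was taken to belong to it, while 24 h replicate 1 and both Hep-Org libraries belong to the first. Nothing in the labels says that replicates came from separate animals or cultures, so p-values reflect the scatter of these particular samples. That scatter may be technical, though not wholly so in Hep-Org, whose 2 libraries differed in sex-linked transcripts, given below, and thus in donor animal.

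When part of the liver is removed, the remaining hepatocytes leave quiescence, raise D-type cyclins, load the Mcm helicase onto DNA, copy their genome and later divide, and they go on secreting plasma proteins and clearing ammonia while they do so. Hepatocyte identity is held by a network of transcription factors such as Hnf4a and the Foxa proteins. Hepatocytes grown in gel with mitogens can be passaged, and cultured epithelial cells are known to accumulate the Cdk inhibitors of the Cdkn2a and Cdkn2b locus and to take on traits of bile duct or fetal liver cells.

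The promoters of 3 genes from the groups described below are shown first, because each holds the short sequence by which its class of genes is known. Each is the 250 bases before the RefSeq start in GRCm38.p6, written 5′ to 3′ on the strand of the gene, with the motif in capitals on whichever strand it was found. Mcm7, a subunit of the replicative helicase, lies at chr5:138171884-138172133 (minus strand) and holds an E2F element. Mki67, a chromosome surface protein of dividing cells, lies at chr7:135716380-135716629 (minus strand) and holds 2 copies of the cell cycle homology region (CHR) of mitotic genes. Ankrd1, a transcript induced through YAP and TEAD, lies at chr19:36119845-36120094 (minus strand) and holds 2 TEAD elements. The GENCODE models of Mcm7 and Ankrd1, whose positions are used for genes below, start further upstream, so these windows lie inside them.
Mcm7: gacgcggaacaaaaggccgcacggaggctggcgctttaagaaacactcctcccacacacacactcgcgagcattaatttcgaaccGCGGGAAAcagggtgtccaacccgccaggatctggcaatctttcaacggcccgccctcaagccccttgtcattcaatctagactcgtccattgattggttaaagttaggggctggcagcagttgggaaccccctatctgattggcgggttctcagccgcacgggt
Mki67: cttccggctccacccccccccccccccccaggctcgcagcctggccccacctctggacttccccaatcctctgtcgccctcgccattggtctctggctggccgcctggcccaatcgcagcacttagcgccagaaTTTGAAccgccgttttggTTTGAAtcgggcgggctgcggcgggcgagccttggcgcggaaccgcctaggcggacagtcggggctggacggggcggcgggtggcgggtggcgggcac
Ankrd1: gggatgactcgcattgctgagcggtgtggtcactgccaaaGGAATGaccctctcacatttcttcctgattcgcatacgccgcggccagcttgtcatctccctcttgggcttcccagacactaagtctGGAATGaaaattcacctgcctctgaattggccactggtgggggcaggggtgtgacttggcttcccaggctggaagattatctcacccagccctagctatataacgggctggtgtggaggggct

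Of the 10737 genes, 8000 had a promoter in the RefSeq table, and 7 motifs were searched in these windows on both strands, each by itself, so that a match of one may overlap a match of another. The E2F letters (TTTGGCGC or TTTCCCGC) stood in 2.63% of the 8000 promoters, in 3.29% of the 1035 before genes called higher in Hep-Org, in 1.5% of the 1271 before genes called lower, and in 1.35% of all 27025 promoters of the table. The E2F letters were thus rare in every set (not tested). The shares of the same 4 sets for CHR (TTTGAA) were 10.5%, 7.92%, 13.9% and 16.3%, and those for the NF-Y box (CCAAT) 36.8%, 31.5%, 41.6% and 34.5%. For TEAD (GGAATG) they were 10.5%, 10.3%, 12.6% and 12.6%, for AP-1 (TGANTCA) 4.45%, 5.70%, 7.00% and 6.87%, for HNF4 (CAAAGTCCA) 0.463%, 0.387%, 1.02% and 0.381%, and for the TATA box (TATAAA) 6.74%, 6.96%, 11.5% and 13.0%. Within the lists, CHR letters stood in 9 and CCAAT in 17 of 21 mitotic promoters, TEAD letters in 9 of 13 promoters of the YAP and TEAD list, and E2F letters in 3 of 25 replication promoters. In other lists the letters of the class were absent: HNF4 in 0 of 26 plasma protein promoters and AP-1 in 0 of 15 immediate-early and AP-1 promoters. A plasma protein promoter was to be printed as well, but none held the HNF4 letters. These matches describe letters in a window and were not tested as sites.

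Depth recovered from the FPKM values was 22.9 and 24.3 M reads in Hep-Org and 18.9 and 15.2 M at 24 h. Mitochondrially encoded genes took 3.17% and 3.26% of the reads in Hep-Org but 25.1% and 6.52% at 24 h. FPKM summed to 184765 and 167676 in Hep-Org and to 708167 and 429204 at 24 h, so the scale of the deposited values matters for direction. On the deposited scale the median difference over all genes was 0.04, and 3117 genes were called, 44.6% of them higher in Hep-Org (1389 higher, 1728 lower). Rescaled to the same sum, the median was 1.52 and 89.2% of the calls were higher (6640 higher, 807 lower). Differences below are on the deposited scale, and lists and genes called on that scale whose direction turned under that rescaling are named as such. Genes not called on the deposited scale turned too, and they are given with the limits at the end. Replicates also differed in sex-linked transcripts: Ddx3y, on the Y chromosome, was at 9.9 and 0.00756 FPKM in Hep-Org replicates 1 and 2 and at 10.9 and 9.66 at 24 h, and Xist was at 0.00128 and 25.3 in Hep-Org and 0.00381 and 0 at 24 h. Hep-Org replicate 2 thus had the female pattern and the other 3 libraries the male one. Xist was at 13.6 to 23.7 FPKM in all 4 libraries of 48 h and 72 h.

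Genes were called when limma, on log2(FPKM + 1), gave a Benjamini-Hochberg adjusted p under 0.05 and a difference of at least 1 in either direction. A difference is Hep-Org minus 24 h on that scale, written with its standard error, and it understates the change of genes near 0. At 24 h, 29.0% of all genes were called, 12.9% higher and 16.1% lower in Hep-Org, and these shares are the background for the counts below. The libraries of the groups did not overlap for 79.5% of all genes, so separation alone is common, and for 29.2% the 95% interval of the difference lay within 1 in either direction. Of the 3117 called genes, 1843 kept the call when each of the 4 libraries was left out in turn (856 higher, 987 lower). The number of calls that held in this way is given for each list. Each of these fits left 1 library in a group, which widens the standard error. A call could thus be lost although its difference barely moved, so a lost call need not mean dependence on that library. A gene that passed the filter only through the group in which it was high had to differ, so counts over tested members describe those members and not the whole list. Without 24 h replicate 2, the only one of the 4 libraries taken to belong to the second submission, 2594 genes were called.

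**Figure D1:**
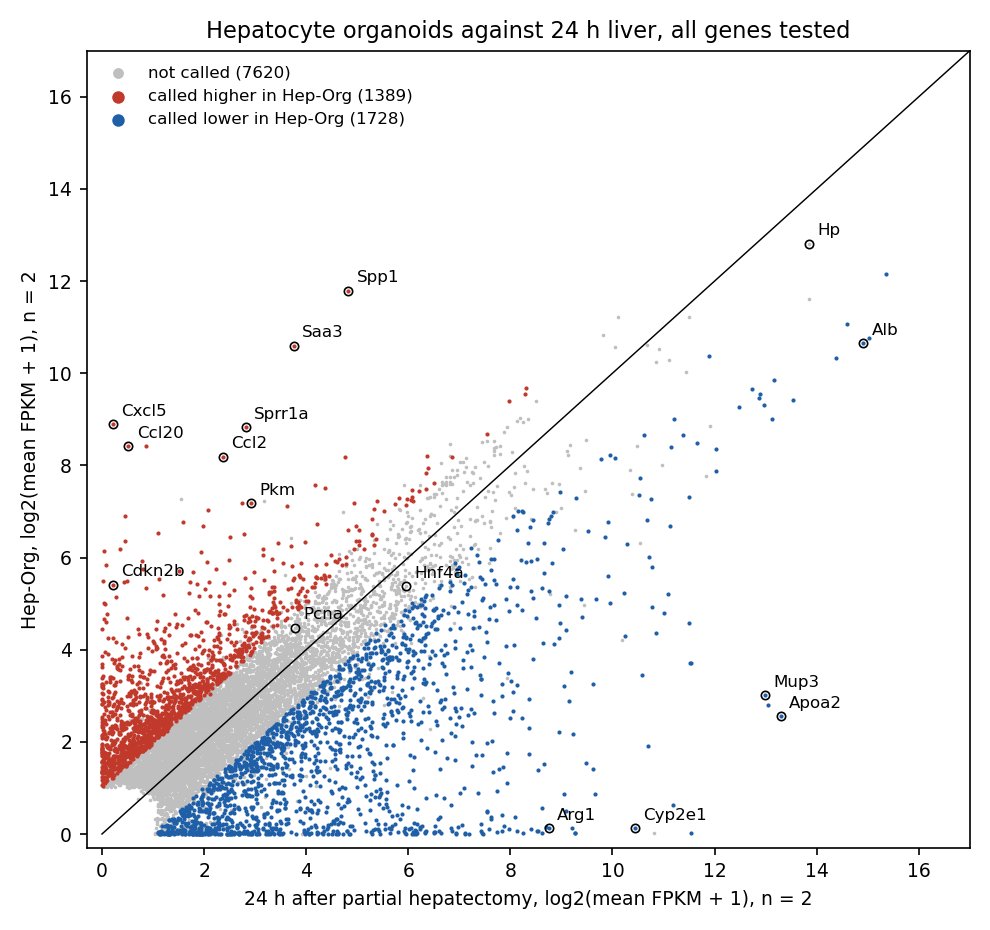
Mean FPKM of the 2 Hep-Org libraries (vertical) against that of the 2 libraries at 24 h (horizontal), each as log2(mean FPKM + 1), 1 point per gene for 10737 genes. Genes called higher in Hep-Org (1389) and lower (1728) are coloured, and the calls spread over the whole range of levels, with Apoa2, Cyp2e1, Cxcl5 and Ccl20 far from the diagonal.

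The transcripts that gained most in organoids encoded chemokines and epithelial proteins. Cxcl5, a neutrophil chemokine (chr5:90759360-90761624, mm10), was at 224 and 724 FPKM in Hep-Org and 0 and 0.331 at 24 h (difference 8.45 ± 0.43, adjusted p = 2.94e-08). Ccl20, the ligand of Ccr6 (chr1:83116766-83119167), was at 228 and 454 FPKM in Hep-Org and 0.866 and 0 at 24 h (difference 7.88 ± 0.29, adjusted p = 1.68e-09). For both genes the Hep-Org libraries were high and the 24 h libraries at or near 0. Spp1, osteopontin (chr5:104435118-104441050), reached 4416 and 2695 FPKM in Hep-Org against 38.6 and 15.9 at 24 h (difference 7.06 ± 1.35, adjusted p = 0.00119). Cpe, carboxypeptidase E, was at 408 and 270.4 against 0.891 and 0.756 (7.52 ± 0.56), Sprr1a, a cornified envelope protein, at 500.3 and 412 against 12.1 and 0 (6.97 ± 0.75), and Cdh17, an intestinal cadherin, at 98.7 and 39.7 against 0.0611 and 0 (5.95 ± 0.27). Genes entered this ranking only if the libraries of the groups did not overlap, so their separation was fixed by the choice. The other increases among the 12 largest were Saa3, Tspan8, Ccl2, Ltb, Cxcl3 and Phgdh, with differences of 5.66 to 6.77. Phgdh, the first enzyme of serine synthesis, stood at 0.165 and 0.397 FPKM at 24 h and 106 and 37.7 in Hep-Org (5.66 ± 0.34).

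The transcripts that lost most encoded secreted and metabolic products of the mature hepatocyte. Apoa2, an apolipoprotein of high-density lipoprotein (chr1:171225054-171226379), was at 4.43 and 5.34 FPKM in Hep-Org and 11878 and 8253 at 24 h (difference -10.72 ± 0.75, adjusted p = 2.32e-07). Cyp2e1, the ethanol-oxidizing cytochrome (chr7:140763739-140774987), was at 0 and 0.191 FPKM in Hep-Org and 686 and 2102 at 24 h (difference -10.11 ± 0.69, adjusted p = 2.01e-07). Both were abundant at 24 h and stood at no more than a few FPKM in organoids. Bhmt, a methyltransferase that makes methionine, stood at 0 and 0.0273 against 742 and 494 (-9.22 ± 0.93), Fabp1, the liver fatty acid carrier, at 3.81 and 1.74 against 1739 and 1586 (-8.84 ± 1.03), and Arg1, the last enzyme of the urea cycle, at 0.123 and 0.0617 against 506 and 358 (-8.61 ± 0.69). Libraries that do not overlap were a condition of the choice here too. The rest of the 12 largest decreases were Serpina3k, Mup12, Mup3, Mup7, Cyp4a14, Apoa5 and Ces1c (-10.45 to -8.6), and the Mup genes have near-identical copies among which reads may have been split.

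Regulators of the G1 phase were higher in Hep-Org, both those that push the cycle on and those that hold it. Of 27 genes in the list 23 were tested and 12 called, each of them higher, with a median difference of 1.03 against 0.04 for all genes, and 7 of the 12 calls held without each library in turn. Ccnd1, the D-type cyclin that couples growth signals to Cdk4 (chr7:144929931-144939925), was at 61.1 and 83.1 FPKM in Hep-Org and 12.5 and 3.38 at 24 h (difference 3.23 ± 0.59, adjusted p = 7.89e-04). Ccnd2, its paralog, was at 15.9 and 12.6 against 0.654 and 0.681 (3.19 ± 0.31), and their partner Cdk4 at 32.9 and 31 against 8.82 and 9.54 (1.7 ± 0.21). In each case both Hep-Org libraries lay above both 24 h libraries, and the groups did not overlap for 79.5% of all genes. Ccnd2 passed the filter only through Hep-Org, so it had to differ. Myc, a growth-promoting factor, also rose (15.9 and 13.1 against 4.28 and 3.47 FPKM, 1.67 ± 0.25). Without Hep-Org replicate 1 only 7 of the list were called, since the calls of Cdk6 (1.3 ± 0.30, 0.84 in that fit), Ccne1 (1.25 ± 0.39, 0.96), E2f3 (1.03 ± 0.18, 0.98), Foxm1 (1.07 ± 0.40, 0.98) and Cdkn1a were lost. Without 24 h replicate 2 the calls of Ccne1 (0.82), E2f3 (0.97) and Foxm1 (0.99) were lost as well, and that of Foxm1 also without either of the other libraries (1.16 and 1.15).

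Of the inhibitors of Cdk4 and Cdk6, Cdkn2b and Cdkn2a had the largest differences of the list, and Cdkn2c (0.50 ± 0.46) and Cdkn2d (-0.08 ± 0.57, 1.16 when rescaled) were not called. Cdkn2b, which encodes p15 (chr4:89306299-89311039), was at 49.4 and 33.8 FPKM in Hep-Org and 0.148 and 0.177 at 24 h (difference 5.17 ± 0.16, adjusted p = 3.92e-10). Cdkn2a, which encodes p16 and Arf, not separated at the level of the gene (chr4:89274471-89294653), was at 19.5 and 29.5 FPKM in Hep-Org and 0.0583 and 0 at 24 h (difference 4.61 ± 0.25, adjusted p = 3.84e-08). Cdkn2a and Cdkn2b were near 0 in the 24 h libraries, and also at 48 h (0 and 0 for Cdkn2a and 0.0887 and 0.048 for Cdkn2b) and 72 h (0.624 and 0.178 for Cdkn2a and 0.0831 and 0 for Cdkn2b), while both organoid libraries were well above. Both genes passed the filter only through Hep-Org, so they had to differ. Cdkn1a, which encodes p21, was at 28.1 and 41.4 against 6.52 and 6.42 (difference 2.23 ± 0.76, adjusted p = 0.0316), but the call was lost without each of the 4 libraries in turn (1.96 to 2.5). Cdkn1b, which encodes p27, was at 3.96 and 3.93 against 3.75 and 3.93 FPKM, with a 95% interval of the difference of -0.39 to 0.45.

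**Figure D2:**
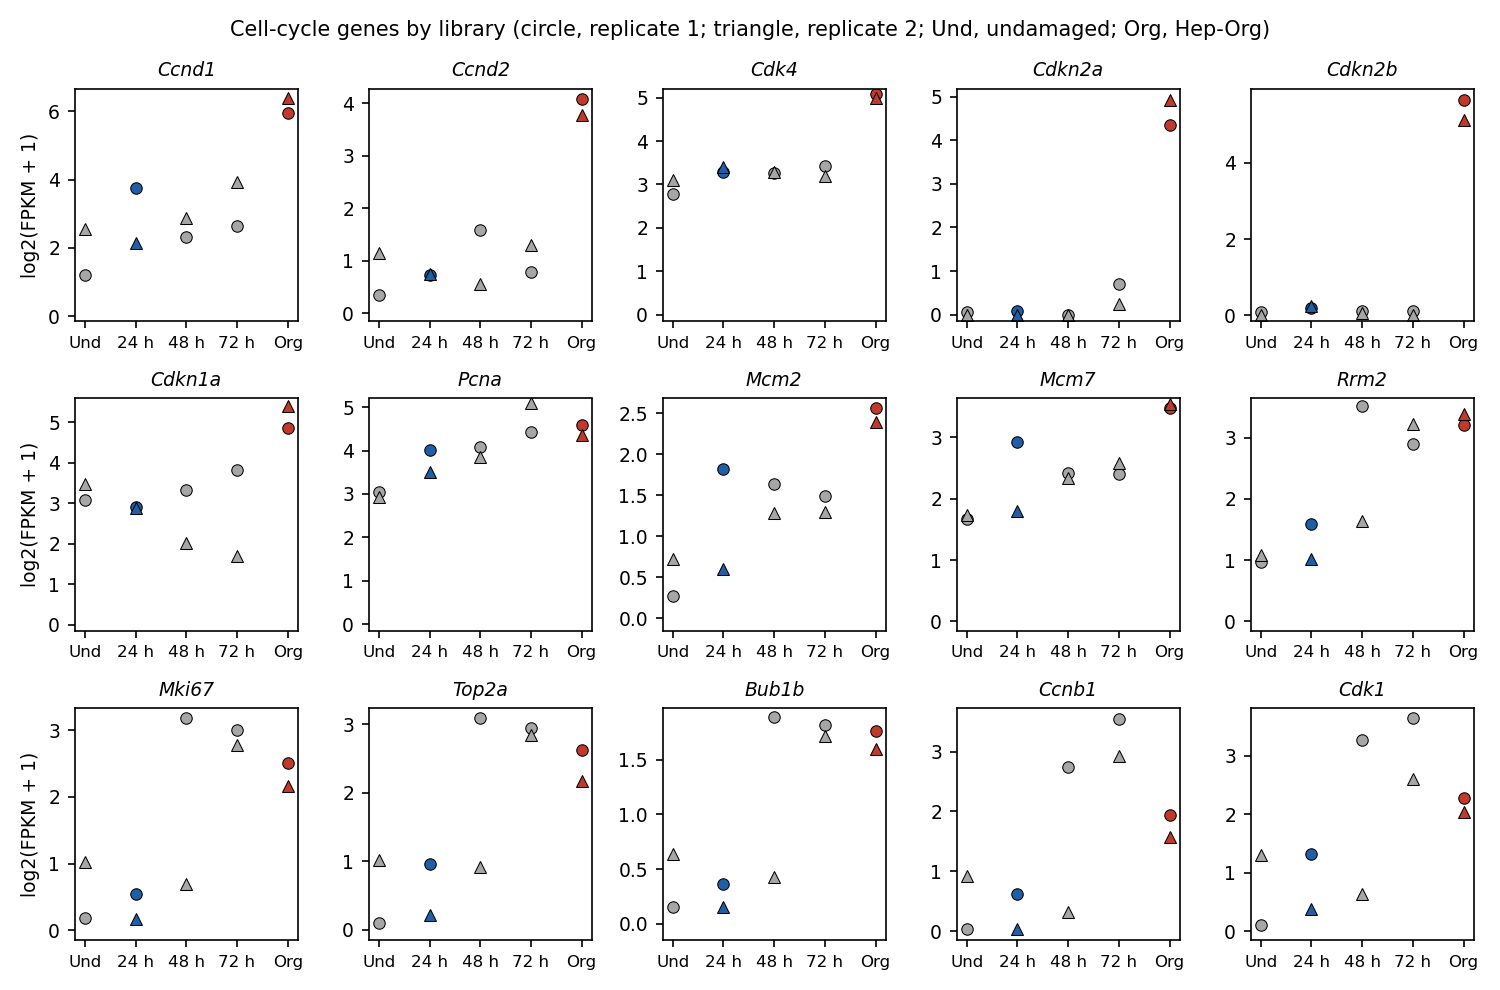
Level of 15 cell cycle genes as log2(FPKM + 1) (vertical) in each library of undamaged liver, 24 h, 48 h, 72 h and Hep-Org (horizontal), with a circle for replicate 1 and a triangle for replicate 2, 24 h in blue and Hep-Org in red. Cdkn2a and Cdkn2b are high in both Hep-Org libraries and below 1 FPKM in every other library drawn, while Mki67 and Ccnb1 in Hep-Org lie between 24 h and 72 h.

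Few DNA replication genes were called, and they went in both directions. Of the 41 listed, 32 were tested and 7 called: Rrm2, Uhrf1, Mcm2, Mcm7 and Mcm4 higher and 2 lower, among them Gins1, with a median of 0.55. Mcm7 (chr5:138164583-138172422) was at 10.1 and 10.6 FPKM in Hep-Org and 6.6 and 2.49 at 24 h (difference 1.14 ± 0.38, adjusted p = 0.0267). Mcm2 was at 4.92 and 4.24 against 2.54 and 0.514 (1.27 ± 0.33), and Rrm2, the inducible subunit of ribonucleotide reductase, at 8.28 and 9.4 against 2 and 1.02 (2.0 ± 0.60). The organoid libraries were close to each other, whereas at 24 h replicate 1 was well above replicate 2 for most helicase genes, so the size of the difference depended on which 24 h library was kept. None of the 7 calls held in every leave-out, and with the 4 libraries alone 1 was called higher and 2 lower. Leaving out 24 h replicate 1 gave 11 genes called higher and leaving out Hep-Org replicate 2 gave 2, and all 5 higher calls were lost without Hep-Org replicate 1 and without 24 h replicate 2. The call of Mcm7 was lost without Hep-Org replicate 1 (1.18), without Hep-Org replicate 2 (1.11) and without 24 h replicate 2 (0.58). That of Mcm2 was lost without Hep-Org replicate 1 (1.18) and without 24 h replicate 2 (0.66), and that of Uhrf1 (1.44 ± 0.39) was lost without Hep-Org replicate 1 (1.22) and without 24 h replicate 2 (0.79). The call of Mcm4 (1.02 ± 0.39) was lost without Hep-Org replicate 1 (0.76), without Hep-Org replicate 2 (1.28) and without 24 h replicate 2 (0.39), with a difference of 1.66 without 24 h replicate 1. Rrm2 went the same way, its call being lost without Hep-Org replicate 1 (2.08), without Hep-Org replicate 2 (1.91) and without 24 h replicate 2 (1.71). Pcna, the sliding clamp, was at 23.1 and 19.4 against 15.2 and 10.5 FPKM and was not called, with an interval of -0.11 to 1.52. The call of Gins1 (-1.14 ± 0.36) was lost without Hep-Org replicate 2 (-0.82) and without 24 h replicate 1 (-0.72), and its direction turned to 0.05 when the libraries were rescaled to the same sum.

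Mitotic genes were at low levels in both groups, and the number called depended on how the spread was estimated. Of 38 listed genes 26 were tested, and 4 (15.4%, against 12.9% of all genes) were called, each higher: Bub1b, Incenp, Top2a and Mki67, with a list median of 1.36. None of the 4 calls held in every leave-out. With the spread taken from the 4 libraries alone 19 were called higher, with a submission term 2, without a filter 1, and by limma-voom 1 higher and 1 lower. Mki67 (chr7:135689784-135716361) was at 4.7 and 3.46 FPKM in Hep-Org and 0.455 and 0.129 at 24 h (difference 1.98 ± 0.70, adjusted p = 0.0365), and Top2a, the topoisomerase that separates chromosomes, at 5.18 and 3.5 against 0.948 and 0.157 (1.81 ± 0.69). The groups did not overlap for 25 of the 26 tested genes, against 79.5% of all genes, so separation was common in any case. The organoid libraries were the higher ones for Mki67 and Top2a, with 24 h replicate 1 above replicate 2. The calls of Mki67, Top2a and Incenp (1.48 ± 0.50) were lost without each of the 4 libraries in turn, at 1.79 to 2.16, 1.44 to 2.19 and 1.27 to 1.68, and that of Bub1b (1.42 ± 0.42) was lost without Hep-Org replicate 1 (1.34), without Hep-Org replicate 2 (1.5) and without 24 h replicate 2 (1.32). Pttg1, the securin, and Ccnf were lower in both organoid libraries and not called with all 4 libraries (-0.89 ± 0.31 and -0.90 ± 0.42, 0.57 and 0.45 when rescaled). Pttg1 was called lower without Hep-Org replicate 2 (-1.19) and without 24 h replicate 1 (-1.13).

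The organoids were also set against the later times. At 48 h 26.2% of all genes were called (12.5% higher and 13.7% lower in Hep-Org), and at 72 h 26.9% (13.2% and 13.7%), all with the same Hep-Org libraries. Of the mitotic genes, limma called none at 48 h (2 genes, both lower, at an unadjusted p under 0.05, and 1, also lower, by limma-voom) and 1 at 72 h, which was lower in Hep-Org, and the medians were 0.25 and -0.76. Mki67 was at 8.09 and 0.616 FPKM at 48 h and 7.05 and 5.84 at 72 h, and Ccnb1, the mitotic cyclin, at 5.69 and 0.253 at 48 h and 10.7 and 6.62 at 72 h, against 2.83 and 1.97 in Hep-Org. The organoids were thus above 24 h, within the wide range of the 48 h libraries and below both 72 h libraries for these genes. Of the G1 list 11 genes were called higher at 48 h and 11 at 72 h (medians 0.86 and 0.79), and the replication list had 3 higher and 1 lower at each time (medians 0.45 and 0.09). Summed over the 38 mitotic genes, FPKM was 93.5 and 77.2 in Hep-Org, 32.9 and 24.4 at 24 h, 199 and 30.9 at 48 h, 245 and 169 at 72 h, and 21.5 and 40.8 in undamaged liver. Summed over the 41 replication genes it was 157 and 137 in Hep-Org and 134 and 69.5 at 24 h, so the organoids lay above the 24 h libraries, replicate 1 by little.

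Most targets of p53 rose in organoids. All 17 listed genes were tested, and 14 were called, 13 higher and 1 lower, with a median of 2.23, and 11 calls held without each library. Phlda3, an inhibitor of Akt, was at 35.8 and 69.6 FPKM in Hep-Org and 0.877 and 0.593 at 24 h (difference 4.88 ± 0.46, adjusted p = 3.19e-06). Eda2r, a death receptor, was at 6.22 and 8.91 against 0.0464 and 0.115 (2.97 ± 0.19), Ccng1 at 55.4 and 76.3 against 7.59 and 8.34 (2.88 ± 0.24) and Zmat3 at 6.08 and 7.98 against 0.401 and 0.512 (2.45 ± 0.20). None of these overlapped between the groups, which was so for 79.5% of all genes, and Hep-Org replicate 2 was the higher organoid library in each. Phlda3, Eda2r and Zmat3 passed the filter only through Hep-Org, so they had to differ. Mdm2, the ubiquitin ligase that limits p53, rose as well (26.1 and 32.4 against 6.04 and 6.97 FPKM, 2.0 ± 0.25), as did the transcript of p53 itself, Trp53 (17.3 and 19.4 against 4.48 and 3.11, 2.03 ± 0.27). The call of the lower gene, Sesn1 (-1.02 ± 0.28), was lost without Hep-Org replicate 1 (-0.94) and without 24 h replicate 2 (-0.77), and its difference went to 0.04 when rescaled to the same sum, and Gdf15 (16.5 and 19.7 against 14.6 and 2.6), Perp and Fas were not called.

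Some genes for ribosome assembly were higher. All 25 were tested and 7 were called, each higher, with a median of 0.71, and 4 calls held in every leave-out. Npm1, nucleophosmin, was at 187 and 102 FPKM in Hep-Org and 28.2 and 30.8 at 24 h (difference 2.19 ± 0.35, adjusted p = 3.15e-04), and Mybbp1a, a nucleolar Myb-binding protein, at 27.5 and 20.1 against 6.8 and 6.11 (1.72 ± 0.26). For both genes replicate 1 was the higher organoid library and the 24 h libraries were close to each other. Without Hep-Org replicate 1 the count was 4.

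Among hepatocyte transcription factors Hnf4a, Foxa2 and Nr5a2 were not called, and Cebpa and several nuclear receptors were called lower. Of 26 listed, 24 were tested and 11 called, each lower, with a median of -1.06, and 5 calls held in every leave-out (Creb3l3, Nr1i2, Nr1h4, Gata4 and Nr2f2). Hnf4a (chr2:163506808-163572910) was at 43.5 and 37.9 FPKM in Hep-Org and 62.1 and 60.1 at 24 h and was not called (-0.58 ± 0.34, 95% interval -1.32 to 0.16). Foxa2 was at 8.11 and 8.88 against 4.96 and 13.1 (interval -0.85 to 0.95) and Nr5a2 at 8.39 and 8.81 against 6.51 and 6.27 (-0.28 to 1.03). Of these 3 factors Hnf4a was lower in both organoid libraries, although its difference was 1.05 when rescaled to the same sum, Nr5a2 was higher in both, and Foxa2 lay between the 24 h libraries. Creb3l3, a membrane-bound factor that drives lipid and iron genes (chr10:81084324-81098874), was at 1.95 and 1.62 FPKM in Hep-Org and 165 and 138 at 24 h (difference -5.77 ± 0.37, adjusted p = 1.03e-07). Nr1i2, the xenobiotic sensor PXR, was at 1.06 and 2.06 against 40.7 and 20.7 (-3.58 ± 0.37), and Nr1h4, the bile acid receptor FXR, at 2.37 and 5.48 against 22.9 and 52 (-2.93 ± 0.41). Every organoid value was below every 24 h value for these 3. Nr0b2 (-4.3 ± 1.14) was also called lower, a call lost without 24 h replicate 1 (-2.63). The call of Nr1i3 (-2.43 ± 0.60) was lost without 24 h replicate 2 (-1.86), and that of Rxra (-1.67 ± 0.47) was lost without Hep-Org replicate 1 (-1.42) and without 24 h replicate 1 (-1.61). The calls of Cebpa (-2.2 ± 0.64), Atf5 (-1.97 ± 0.62) and Ppara (-2.29 ± 0.79) were lost without replicate 2 of either group, at -1.84, -1.3 and -1.45 when it was the 24 h library and at -2.08, -1.26 and -2.32 when it was the Hep-Org library, and those of Cebpa (-2.31) and Ppara (-2.26) also without Hep-Org replicate 1. The list had 7 calls without 24 h replicate 2, and its median turned above 0 under rescaling to the same sum.

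Plasma protein transcripts ranged from near 0 to the level of 24 h liver. All 32 were tested and 25 called, each lower, with a median of -3.30, and 20 calls held. Serpinc1, antithrombin, was at 0.268 and 0.4 FPKM in Hep-Org and 269 and 187 at 24 h (difference -7.4 ± 0.48, adjusted p = 1.11e-07), and Apoc3, which slows triglyceride clearance, at 24.7 and 20.9 against 3676 and 2092 (-6.87 ± 0.79). Apoh and Vtn, vitronectin, kept moderate levels (Apoh at 40.9 and 32.7 FPKM against 1294 and 1099.7 at 24 h, -4.99 ± 0.49, and Vtn at 50.4 and 59 against 1589.8 and 1934, -4.98 ± 0.50). Alb, albumin, was at 3132 and 86.4 FPKM in Hep-Org replicates 1 and 2 and 40825 and 20852 at 24 h (difference -5.8 ± 1.17, adjusted p = 0.00165), so both organoid libraries lay below both 24 h libraries but were themselves far apart, and without replicate 2 the difference was -3.22. Ttr, transthyretin, went the other way, with replicate 2 the higher (77.4 and 393 against 4930.3 and 3467, -4.56 ± 0.74). By contrast Hp, haptoglobin, at 7333 and 7048 against 15144 and 14339, and Ambp, the precursor of alpha-1-microglobulin, at 2361 and 2424 against 3564 and 2222, were not called (intervals -3.3 to 1.23 and -1.62 to 1.15), and Ambp was called higher at 1.41 when rescaled to the same sum. Cp, ceruloplasmin, was the one member with a difference above 0 (611 and 386 against 395 and 161, 0.94 ± 0.74) and was not called. Gc (-1.53 ± 0.46) and Itih2 (-1.37 ± 0.52) were called lower but went to 0.12 and 0.27 when rescaled to the same sum, and the call of Gc was lost without Hep-Org replicate 2 (-1.25) and without 24 h replicate 1 (-1.37). That of Itih2 was lost without Hep-Org replicate 2 (-0.49), without 24 h replicate 1 (-1.48) and without 24 h replicate 2 (-1.26), with a difference of -2.25 without Hep-Org replicate 1.

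As a check of the label, the hepatocyte markers Alb, Ttr, Apoa1, Serpina1a and Hnf4a were above 1 FPKM in both organoid libraries and Cyp2e1 was not. All were lower than at 24 h on the deposited scale, with Apoa1 at 803 and 228 against 10127 and 7864 and Serpina1a at 208 and 99.4 against 1762 and 1682. Of the cholangiocyte markers, Spp1, Krt19, Sox9 and Epcam were present in both organoid libraries, Krt7 was low and Cftr was at 0.136 and 0.0607.

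Enzymes of drug metabolism and nitrogen disposal were lower nearly throughout. Of 29 cytochrome P450 and other phase I genes 28 were tested and 27 called, each lower (median -5.53, 24 held), and of 31 urea cycle and amino acid genes 30 were called, each lower (median -5.04, 28 held). Cyp2j5, an epoxygenase, was at 0.664 and 0.184 FPKM in Hep-Org and 174 and 198 at 24 h (-7.06 ± 0.38), and Ces3a, a carboxylesterase, at 0.0261 and 0.12 against 215 and 461 (-8.2 ± 0.47). Kmo, of the kynurenine route, was at 0.15 and 0.17 against 48 and 57.4 (-5.53 ± 0.28), and Tat, tyrosine aminotransferase, at 0.00952 and 0.0898 against 389 and 343 (-8.45 ± 0.52). Cps1, which starts the urea cycle, was at 0.103 and 0.11 against 519.6 and 304 (-8.49 ± 0.73). These genes were below 1 FPKM in both organoid libraries and abundant in both 24 h libraries. A few stayed measurable: Cyp2d26 at 15.9 and 25.1 FPKM against 651 and 436, Fah at 7.44 and 8.35 against 135 and 149 and Glul, glutamine synthetase, at 15 and 21.4 against 31.8 and 89.5, and the call of Glul (-1.53 ± 0.47) was lost without Hep-Org replicate 1 (-1.28) and without 24 h replicate 2 (-0.79) and its direction turned to 0.07 when rescaled to the same sum. Por, the electron donor of the P450 enzymes, was the only tested phase I gene not called (22.7 and 19.2 against 82.3 and 102, -2.08 ± 0.86). Members of the Cyp2c, Cyp2d, Cyp3a and Cyp4a clusters are close copies, so their single values are uncertain.

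Most bile acid uptake and export genes fell. Of 23 listed, 17 were tested and 15 called, 14 lower and 1 higher (median -4.25, 14 held). The sodium-dependent importer Slc10a1 was at 0.0937 and 0.196 FPKM against 109 and 154 (-6.84 ± 0.50), the importer Slco1b2 at 0 and 0.147 against 136 and 244 (-7.42 ± 0.44) and the bile acid-CoA ligase Slc27a5 at 0.854 and 0.943 against 183 and 241 (-6.8 ± 0.38). All were under 1 FPKM in organoids. Abcc4, an exporter of the basolateral membrane, was the 1 gene called higher (11.8 and 24.5 FPKM in Hep-Org and 0.203 and 0.135 at 24 h, difference 3.95 ± 0.29, adjusted p = 3.57e-07). Abcc3 (-0.68 ± 0.48, 0.92 when rescaled) and the canalicular exporter Abcc2 were not called, Abcc2 being at 18.7 and 34.3 against 25.5 and 23 with an interval of -1.19 to 1.32. Cyp7a1, the rate-limiting enzyme of bile acid synthesis, was listed at 0 in both organoid libraries and at 0.164 and 40.1 in the 24 h libraries, so only 1 of the 4 reached 1 FPKM and it was not tested.

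Lipid genes split by branch. Of 24 oxidation and ketogenesis genes 23 were tested and 19 called, each lower (median -2.71, 13 held), for example Acaa2, a thiolase, at 27 and 34.1 FPKM against 490.4 and 497 (-3.98 ± 0.53). Acads (-1.26 ± 0.35) and Hadha (-1.52 ± 0.38) turned to 0.34 and 0.03 when rescaled to the same sum, and the call of Acads was lost without Hep-Org replicate 2 (-1.17) and without 24 h replicate 2 (-1.2) and that of Hadha was lost without 24 h replicate 2 (-1.29). Of 18 lipogenesis genes 17 were tested, with 4 called higher and 5 lower (median 0.39, 3 of 9 held). Scd2, a desaturase, was at 105 and 79.1 FPKM in Hep-Org and 1.35 and 0.927 at 24 h (difference 5.43 ± 0.36, adjusted p = 1.40e-07), and Acaca, acetyl-CoA carboxylase, at 6.04 and 11 against 2.32 and 1.13 (1.79 ± 0.37). Fasn (1.44 ± 0.45) and Acly (1.24 ± 0.41) were the other increases, with 24 h libraries below both organoid libraries. The call of Fasn was lost without Hep-Org replicate 2 (1.18) and without 24 h replicate 2 (1.17), and that of Acly was lost without each of the 4 libraries in turn (1.06 to 1.42). Agpat2, which makes phosphatidic acid, fell (10.6 and 11.9 against 159 and 110.1, -3.45 ± 0.49), and its libraries did not overlap. Scd1, the hepatic desaturase, was at 108 and 159 against 729 and 289 and was not called (-1.8 ± 0.86), so Scd2 was nearer to Scd1 in organoids than at 24 h. Without 24 h replicate 2 the list median was -0.04, 1 gene was called lower without Hep-Org replicate 1, and 2 were called higher without Hep-Org replicate 2 or 24 h replicate 2. Of 24 cholesterol genes 3 were called (1 held), 1 higher and 2 lower, the latter being Ebp (14.9 and 11.5 against 79.9 and 90.8, -2.61 ± 0.50) and Tm7sf2 (-1.24 ± 0.47). The call of Tm7sf2 was lost without each of the 4 libraries in turn (-1.48 to -1.01) and its difference was 0.22 when rescaled. The median of that list was -0.30 and turned above 0 under rescaling.

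Sugar metabolism genes differed by isoform. Among 11 isoforms typical of liver, all were tested and all called, 9 lower and 2 higher (median -4.05, 10 held). Pck1, the gate of gluconeogenesis, was at 0 and 0.0802 FPKM against 548 and 196 (-8.31 ± 0.86) and the glucose transporter Slc2a2 at 0.215 and 0.113 against 68.4 and 23.1 (-5.14 ± 0.77). Both were below 1 FPKM in organoids. The exceptions were Pklr, pyruvate kinase of liver and red cells (chr3:89136142-89146784), at 47.4 and 53.1 FPKM in Hep-Org and 5.15 and 8.59 at 24 h (difference 2.74 ± 0.55, adjusted p = 0.00165), and Pfkl, the liver phosphofructokinase (13.4 and 10.6 against 3.22 and 3.27, 1.61 ± 0.27). Of 17 isoforms used by most tissues 16 were tested and 10 called, each higher (median 1.10, 4 held). Pkm, the pyruvate kinase of proliferating tissue (chr9:59656368-59679375), was at 96.2 and 192 FPKM in Hep-Org and 6.68 and 6.5 at 24 h (difference 4.17 ± 0.71, adjusted p = 4.84e-04). Hk2 and Hk1, the hexokinases, were at 3.36 and 1.92 against 0.378 and 0.238 (1.45 ± 0.26) and 2.34 and 2.05 against 0.409 and 0.535 (1.12 ± 0.24), and the transporter Slc2a1 at 11.8 and 14.3 against 4.91 and 2.14 (1.7 ± 0.37). In both organoid libraries Slc2a1 was therefore above Slc2a2, and at 24 h the order was the reverse, on FPKM, which is per length. Ldha was below both 24 h values in both organoid libraries (183 and 205 against 376 and 523, -1.19 ± 0.47, 0.45 when rescaled) and not called. Gapdh, at 3.83 and 31.6 against 1.21 and 1.25, has many pseudogene copies, so its value is uncertain, and its call (2.49 ± 0.83) was lost without Hep-Org replicate 2 (1.11), without 24 h replicate 1 (2.48) and without 24 h replicate 2 (2.51), with a difference of 3.87 without Hep-Org replicate 1. Without Hep-Org replicate 2 the general isoforms called numbered 5, and without 24 h replicate 1 they numbered 6.

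**Figure D3:**
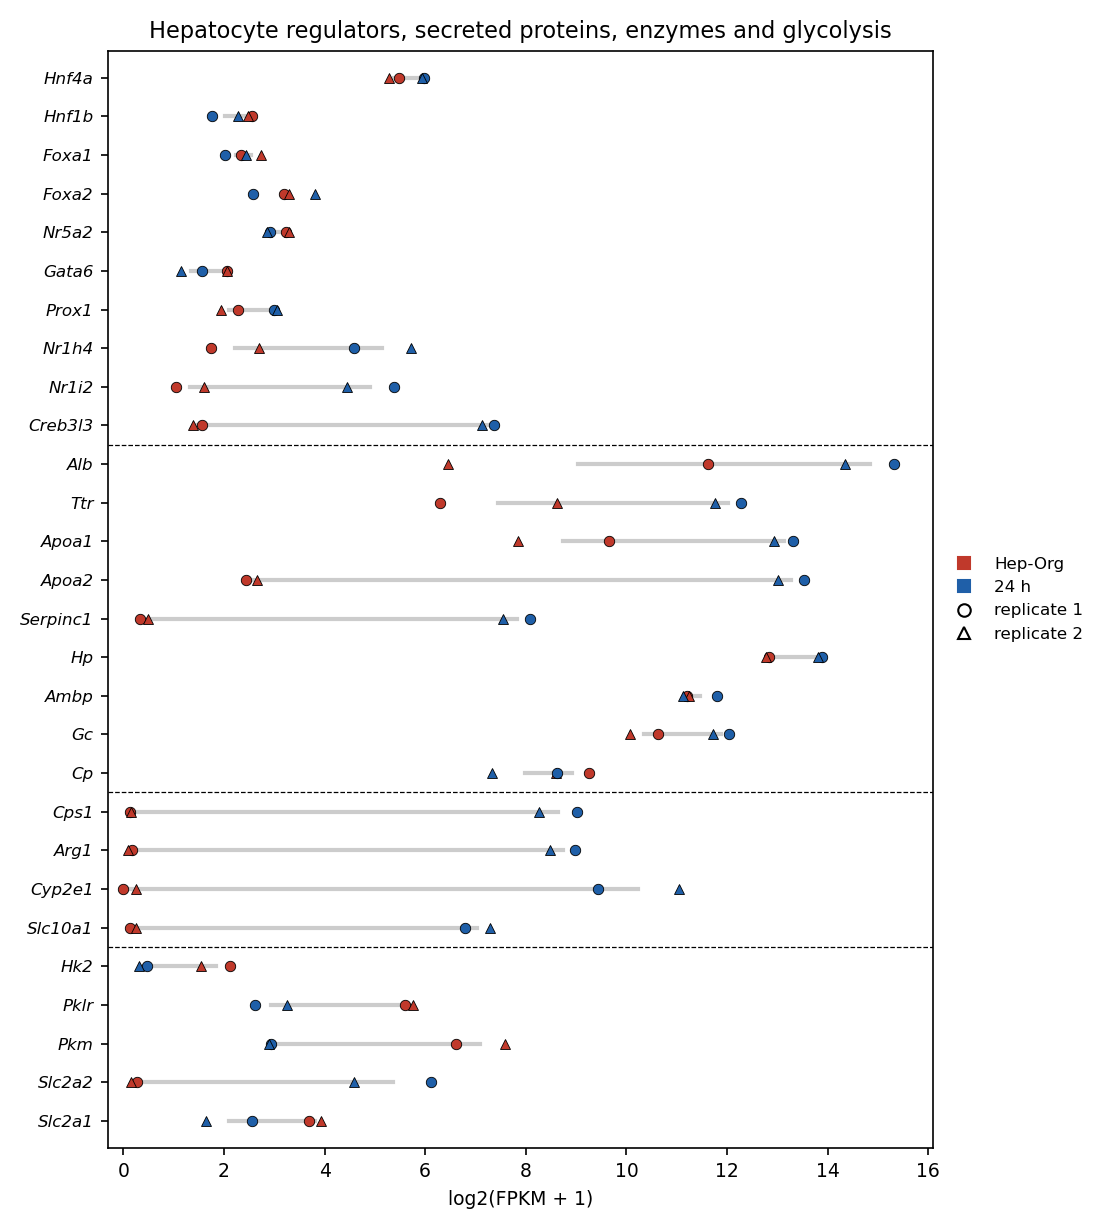
Levels as log2(FPKM + 1) in each Hep-Org library (red) and each 24 h library (blue), with a circle for replicate 1, a triangle for replicate 2 and a grey line joining the group means, for hepatocyte transcription factors, plasma proteins, enzymes and transporters, and sugar metabolism genes. Foxa2 and Ambp overlap between the groups, Cps1, Arg1 and Cyp2e1 are near the floor in Hep-Org, and Pkm and Pklr are higher there.

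Zonal and male-biased genes of liver were mostly lower. All 14 periportal genes were called lower (median -4.90, 12 held) and so were 6 of the 9 tested pericentral genes of 14 listed (median -3.0, 5 held), with Gulo at 4.06 and 5.93 against 139 and 146 FPKM (-4.6 ± 0.41) and Pigr at 5.9 and 5.27 against 192 and 107 (-4.46 ± 0.62). The Wnt feedback genes Rnf43 and Znrf3 were not among the calls (2.2 and 2.81 against 1.5 and 2.33, interval -0.47 to 1.01, and 1.1 and 0.965 against 1.03 and 0.984, interval -0.39 to 0.42). Of 12 male-biased genes 11 were called lower (median -5.57, 8 held), among them C6, a complement component (1.01 and 0.464 against 40.6 and 43.6, -4.65 ± 0.57). Both organoid libraries were low for C6, and Hep-Org replicate 2 had the female pattern of sex-linked transcripts. The part of sex in these differences was not tested. Of 15 female-biased genes 2 passed the filter, and Cyp17a1 was called lower and held (0.169 and 0.136 against 5.05 and 7.6, -2.65 ± 0.60).

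Epithelial genes of ducts and progenitors that passed the filter were mostly higher in organoids. Of 21 listed, 15 were tested and 13 called, 12 higher and 1 lower, with a median of 2.68, and 12 calls held without each library. Sox4, a factor of progenitor cells (chr13:28948919-28953713), was at 14.1 and 15 FPKM in Hep-Org and 0.0143 and 0.0643 at 24 h (difference 3.9 ± 0.12, adjusted p = 3.92e-10). Tspan8 was at 163 and 75.7 against 0.562 and 0.181 (6.37 ± 0.35), Cd24a at 55 and 65.4 against 0.874 and 0.549 (5.16 ± 0.47) and Epcam at 6.89 and 5.24 against 0.201 and 0 (2.68 ± 0.21). These 4 were below 1 FPKM in both 24 h libraries and clearly present in both organoid libraries. They passed the filter only through Hep-Org, so they had to differ. The duct keratin Krt19 was at 9.8 and 17.3 against 1.51 and 1.46 (2.5 ± 0.45) and Sox9, the duct factor, at 10.7 and 10.1 against 1.72 and 1.07 (2.26 ± 0.42). Krt7 was at 1.24 and 1.54 against 0.194 and 0.289, short of the required difference (0.94 ± 0.16), and the water channel Aqp1 was the one gene lower (0.139 and 0.0598 against 49.1 and 47.6, -5.49 ± 0.66). Aqp1 is also made by endothelium. The duct transporters and receptors Cftr, Sctr and Ggt1 did not pass the filter (in Hep-Org Cftr was at 0.136 and 0.0607 FPKM, Sctr at 0.0114 and 0 and Ggt1 at 0.0268 and 0.023).

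Fetal genes that passed the filter were mostly higher in organoids, and the organoid libraries differed in which were high. Of 16 listed, 7 were tested and 6 called, each higher (median 3.07, 5 held). Hmga1, a chromatin protein of fetal and dividing cells, was at 117 and 56.8 FPKM in Hep-Org and 6.11 and 3.31 at 24 h (difference 3.9 ± 0.45, adjusted p = 2.03e-05), Igf2bp2, an RNA-binding protein, at 7.93 and 4.82 against 0.231 and 0.208 (2.56 ± 0.22) and H19, an imprinted RNA, at 73.4 and 14 against 0.0278 and 0 (5.04 ± 0.83). Hmga1, H19 and Hmga2 were highest in replicate 1, and Afp, alpha-fetoprotein, was highest in replicate 2 (3.17 and 33.6 against 0.507 and 0.348, 3.07 ± 0.73). Igf2bp2, H19, Hmga2 and Afp passed the filter only through Hep-Org, with 24 h values below 1 FPKM, so they had to differ. Without Hep-Org replicate 2 the difference of Afp was 1.55, and without replicate 1 that of Hmga2 was 2.19. Of 27 genes of squamous and intestinal epithelium 10 were tested, with 4 higher and 2 lower (median 0.12, 5 held): Sprr1a, Vil1 (1.9 ± 0.32, 1.12 without Hep-Org replicate 2), Krt20 and Dsp (1.16 ± 0.36) rose and Tff3 and Dsc2 fell. The call of Dsp was lost without Hep-Org replicate 1 (1.11), without Hep-Org replicate 2 (1.2) and without 24 h replicate 2 (0.76). Krt20 was at 1.27 and 2.88 against 0.284 and 0 (1.39 ± 0.20) and Dsc2 at 1.31 and 0.785 against 9.68 and 4.95 (-1.97 ± 0.43). Without 24 h replicate 2 the list median was -0.53, and Trp63, which defines squamous cells, was listed at 0.00546 and 0 in Hep-Org.

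Genes of YAP and TEAD, which read matrix stiffness and cell shape, and of their targets were higher in part. The list holds the factors themselves, and Tead1, Tead2 and Tead4 were among its calls. Of 25 listed, 20 were tested and 9 called, each higher (median 1.01, 6 held). Ankrd1, whose promoter is printed above, was at 10.6 and 7.66 FPKM in Hep-Org and 0.658 and 0.314 at 24 h (difference 2.76 ± 0.21, adjusted p = 4.91e-07), and Myof, a membrane repair protein, at 14 and 8.41 against 0.255 and 0.21 (3.27 ± 0.21). Tead2, a binding partner of YAP, was at 6.11 and 3.99 against 0.171 and 0.206 (2.32 ± 0.16), and Yap1 itself at 7.56 and 8.21 against 5.57 and 5.57, not called (interval 0.04 to 0.83). The groups did not overlap for any of these 4, which was so for 79.5% of all genes, and Yap1 had a difference of 0.43 ± 0.18. Ankrd1, Myof and Tead2 passed the filter only through Hep-Org, so they had to differ. Ccn2, a classical target, was at 7.02 and 2.62 against 1.51 and 0.237 (1.61 ± 0.51) and its call was lost without Hep-Org replicate 1 (1.04) and without 24 h replicate 2 (1.11), and Ccn1 was not called (18.7 and 8.27 against 14.8 and 2.63). Without Hep-Org replicate 1 the list had 6 calls.

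Basement membrane, integrin and cytoskeletal genes were higher. Of 22 laminin, integrin and basement membrane genes 16 were tested and 11 called, each higher (median 1.45, 7 held). Itga2, the collagen-binding integrin, was at 30.7 and 15.6 FPKM in Hep-Org and 0.0479 and 0.0691 at 24 h (difference 4.44 ± 0.23, adjusted p = 3.40e-08), Itga3, which binds laminin, at 64.5 and 25.8 against 1.33 and 0.982 (4.29 ± 0.31), Lama5 at 10.3 and 11.5 against 0.354 and 0.146 (3.25 ± 0.17) and Agrn, agrin, at 61.2 and 40.9 against 2.2 and 1.51 (4.17 ± 0.27). All 24 h values of these genes were below 3 FPKM, and replicate 1 was the higher organoid library for all but Lama5. The ubiquitous subunit Itgb1 was at 86.9 and 54.9 against 51.9 and 44.9 and not called (interval -0.17 to 1.18). Without Hep-Org replicate 1 or 24 h replicate 2, 7 genes of this list were called. Of 26 cytoskeletal and annexin genes 14 were called, each higher (median 1.83, 8 held): Anxa3 was at 70.1 and 31.1 against 2.18 and 2.67 (3.8 ± 0.46), Tmsb10 at 199 and 89 against 6.16 and 5.31 (4.32 ± 0.68) and S100a6 at 122 and 59.5 against 7.35 and 4.33 (3.69 ± 0.63). Replicate 1 was the higher organoid library for these, and without Hep-Org replicate 1 or 24 h replicate 2 the count was 8. The keratins of all hepatocytes, Krt8 (269.5 and 89.3 against 609.7 and 87.7) and Krt18 (446 and 187 against 989.9 and 118), overlapped between the groups.

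**Figure D4:**
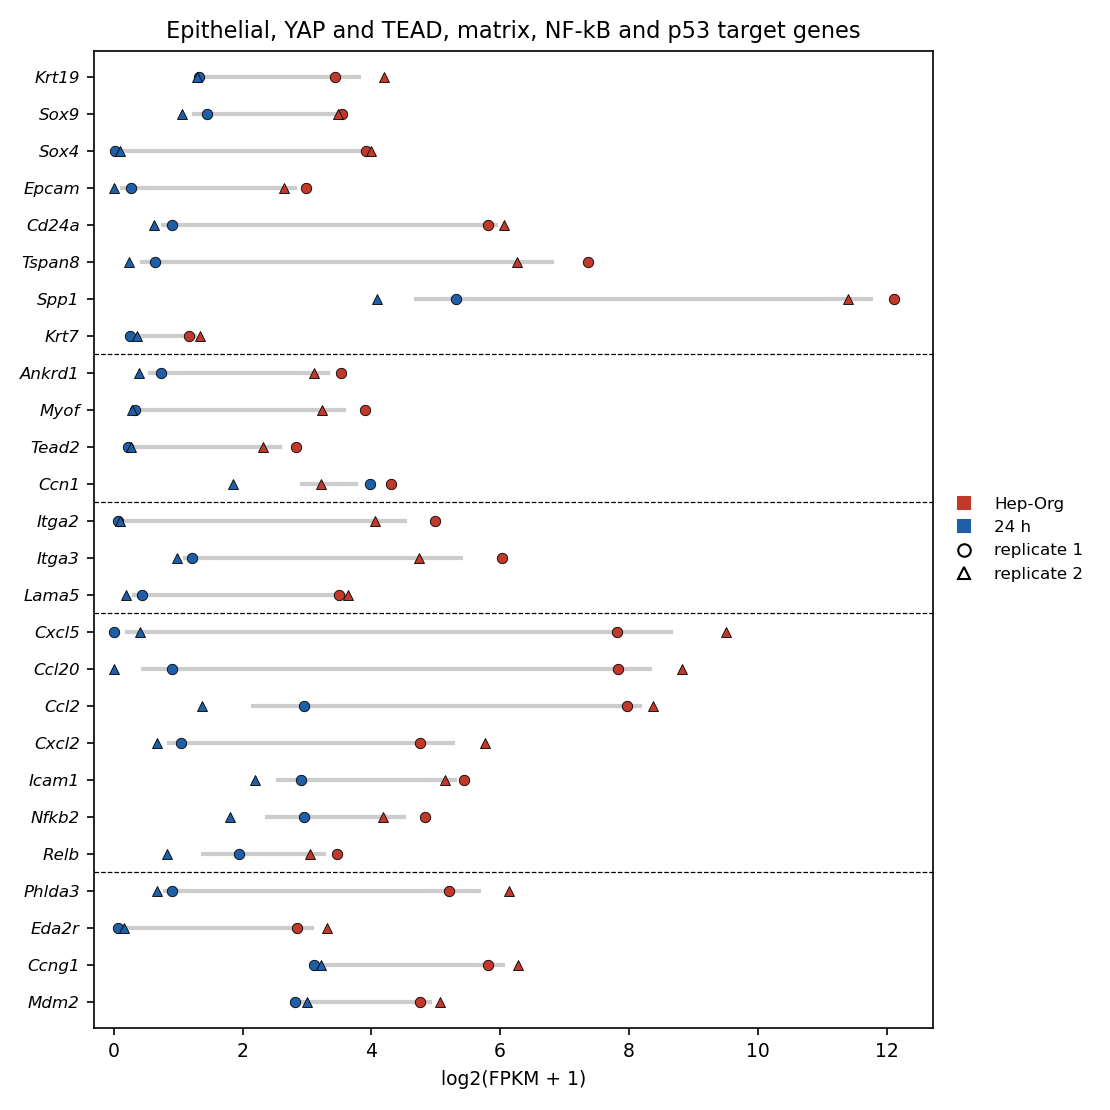
Levels as log2(FPKM + 1) in each Hep-Org library (red) and each 24 h library (blue), with a circle for replicate 1, a triangle for replicate 2 and a grey line joining the group means, for duct and progenitor genes, YAP and TEAD genes, integrins and laminin, NF-kB genes and chemokines, and p53 targets. The genes drawn were picked from the lists, and listed genes with differences below 0, such as Aqp1, Sesn1, Fas and Perp, are not drawn. In every gene drawn except Ccn1 both Hep-Org points lie above both 24 h points, with wide gaps for Cxcl5, Ccl20, Spp1 and Tspan8. The groups did not overlap for 79.5% of all genes.

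The NF-kB pathway and its chemokines were higher nearly throughout. Of 22 listed, 21 were tested and 16 called, each higher (median 2.16, 13 held). Beside Cxcl5 and Ccl20, described above, Ccl2, which attracts monocytes, was at 249 and 332 FPKM in Hep-Org and 6.79 and 1.57 at 24 h (difference 6.01 ± 0.83, adjusted p = 9.54e-05) and Cxcl2 at 26 and 53.4 against 1.06 and 0.596 (4.4 ± 0.58). The subunits Nfkb2 (27.4 and 17.2 against 6.76 and 2.51, 2.12 ± 0.42) and Relb (10.1 and 7.27 against 2.83 and 0.777, 1.88 ± 0.35) and the inhibitor Nfkbie (9.2 and 8.01 against 1.08 and 0.607, 2.39 ± 0.29) rose with them. No called gene of the list overlapped between the groups, a separation found for 79.5% of all genes, and for Nfkb2 and Relb 24 h replicate 1 was the closer one. Rela, the subunit present in most cells, was at 19.8 and 16.6 against 15.8 and 11.1 and not called (interval -0.23 to 1.08), and Cxcl1, already high at 24 h (27 and 24), was at 129 and 124 and not called (2.27 ± 1.02, adjusted p = 0.0886).

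Acute-phase transcripts, by contrast, were high at 24 h. Of 15 listed genes all were tested and 5 called, 4 lower and 1 higher (median -1.72, 2 held). Crp was at 8.27 and 10.3 against 201 and 143 FPKM (-4.06 ± 0.66), Hamp, hepcidin, at 16.4 and 207 against 2653 and 636 (-4.44 ± 1.3) and Orm1 at 855 and 999 against 10521 and 7863 (-3.3 ± 1.09), and both organoid libraries were lower in each. The call of Hamp was lost without Hep-Org replicate 1 (-2.65) and without 24 h replicate 1 (-3.41) and that of Orm1 was lost without each of the 4 libraries in turn (-3.51 to -3.09). Il6ra, a subunit of the interleukin-6 receptor, fell from 2.29 and 3.42 to 0.244 and 0.107 (-1.7 ± 0.31). The exception was Saa3, a serum amyloid A known from macrophages and epithelia, at 1047 and 2048 FPKM in Hep-Org and 13.7 and 11.3 at 24 h (difference 6.77 ± 1.9, adjusted p = 0.0123). The liver forms Saa1 (382 and 545 against 3520.4 and 4222) and Saa2 (135 and 299.6 against 3479 and 3801) were lower in both organoid libraries and not called, and they are near-identical to each other. The call of Saa3 was lost without Hep-Org replicate 2 (6.29) and without 24 h replicate 2 (6.64), though its libraries were far apart. Without Hep-Org replicate 1 or 24 h replicate 1 the genes called lower numbered 2, and with the 4 libraries alone they numbered 8.

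Immediate-early genes were higher only in part. Of 22 listed, 19 were tested and 7 called, each higher (median 1.0, 3 held). Fosl1, an AP-1 subunit, was at 8.03 and 5.37 FPKM in Hep-Org and 0.12 and 0.181 at 24 h (difference 2.72 ± 0.21, adjusted p = 5.22e-07), Ier3 at 118 and 85.2 against 4.17 and 1.74 (4.75 ± 0.54) and Maff at 9.87 and 9.34 against 3.43 and 0.737 (1.94 ± 0.38, 1.26 without 24 h replicate 2). The fast-responding Fos and Egr1 were not called: Fos was at 18.6 and 1.44 against 4.56 and 0.839 and Egr1 at 32.4 and 9.1 against 5.78 and 5.69, with one organoid library high in each. Without 24 h replicate 2 the list had 3 calls, and without Hep-Org replicate 1 it had 4.

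Antioxidant genes were mixed. Of 21 genes tied to Nrf2 and glutathione 7 were called, 5 higher and 2 lower (median -0.24, 4 held). G6pdx, which makes NADPH, was at 12.9 and 31.4 FPKM in Hep-Org and 2.24 and 1.72 at 24 h (difference 2.84 ± 0.45, adjusted p = 3.02e-04), Pgd, the next enzyme, at 19.3 and 31.4 against 8.65 and 5.59 (1.68 ± 0.31) and the cystine importer Slc7a11 at 1.92 and 10.3 against 0.00982 and 0 (2.51 ± 0.39, 1.54 without Hep-Org replicate 2). Gclm, the modifier subunit of glutathione synthesis, fell (3.94 and 7.7 against 39.5 and 29.1, -2.41 ± 0.44), and Gstm3 was called lower (0.349 and 6.97 against 972 and 14.2, -5.22 ± 1.47) with wide spread in both groups, a call lost without Hep-Org replicate 1 (-3.93) and without 24 h replicate 1 (-2.22), with a difference of -8.21 without 24 h replicate 2. G6pdx and Pgd were thus higher in both organoid libraries, while Nqo1 overlapped between the groups (0.855 and 4.54 against 6.82 and 3.29). The list median ran from -0.74 without 24 h replicate 2 to 0.18 without 24 h replicate 1, with 3 and 7 genes called higher. It turned above 0 under rescaling, and 1 gene was called lower without Hep-Org replicate 1 or without 24 h replicate 1.

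Chaperones of the endoplasmic reticulum were lower. Of 15 genes of the unfolded protein response 7 were called, each lower (median -1.55, 1 held). Herpud1, which serves degradation at that membrane, was at 23.1 and 19 FPKM in Hep-Org and 140.3 and 166 at 24 h (difference -2.81 ± 0.48, adjusted p = 5.04e-04) and kept its call. Hsp90b1 was at 71.2 and 51.2 against 157 and 252 (-1.7 ± 0.51) and Pdia4 at 41.2 and 39.4 against 108 and 191 (-1.81 ± 0.58). The call of Hsp90b1 was lost without Hep-Org replicate 2 (-1.47) and without 24 h replicate 2 (-1.36), and that of Pdia4 was lost without Hep-Org replicate 1 (-1.84), without Hep-Org replicate 2 (-1.78) and without 24 h replicate 2 (-1.41). Organoid libraries lay below 24 h libraries for these, whereas the stress factors Atf4 (47.8 and 35.6 against 34.2 and 49.5) and Ddit3 (3.47 and 3.2 against 3.47 and 9.9) were not called. Without Hep-Org replicate 2 or 24 h replicate 2 only 1 gene was called, while 2 were without Hep-Org replicate 1 and 4 without 24 h replicate 1. The list median turned above 0 at the same sum, as did Calr (-1.55 ± 0.49, 0.09 rescaled), whose call was lost without each of the 4 libraries in turn (-1.58 to -1.52).

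Among growth factor genes the ligands of the epidermal growth factor (EGF) receptor were higher. Of 21 listed, 19 were tested and 13 called, 8 higher and 5 lower (median -0.17, 5 held). Areg, amphiregulin, was at 7.06 and 3.51 FPKM in Hep-Org and 0.281 and 0 at 24 h (difference 2.41 ± 0.21, adjusted p = 1.46e-06) and Ereg, epiregulin, at 1.77 and 2.65 against 0 and 0.0597 (1.63 ± 0.13). Tgfa, Btc and Hbegf rose too (1.29 ± 0.29, 1.39 ± 0.46 and 1.2 ± 0.31), so all 5 tested ligands of the family were called higher, though only Areg and Ereg kept the call in every leave-out. Areg and Ereg were below 1 FPKM in both 24 h libraries and passed the filter only through Hep-Org, so they had to differ. The call of Tgfa was lost without 24 h replicate 2 (0.86), that of Btc was lost without Hep-Org replicate 1 (0.54) and without 24 h replicate 2 (1.12), with a difference of 2.25 without Hep-Org replicate 2, and that of Hbegf was lost without Hep-Org replicate 1 (0.66) and without 24 h replicate 2 (0.89). Their receptor Egfr was at 20.7 and 11.2 against 20.4 and 29.2 and not called (interval -2.05 to 0.76), and Met, the receptor of hepatocyte growth factor, was at 6.69 and 6.84 against 8.89 and 8.16 (interval -1.23 to 0.64). Igf1, the main endocrine product of growth hormone in liver, was at 0.0624 and 0.0694 against 97 and 41.8 (-5.93 ± 0.51), and Ghr, the growth hormone receptor, at 1.04 and 0.985 against 24.6 and 25.3 (-3.69 ± 0.45). Both were lower in each organoid library. Lifr (-1.17 ± 0.42), Erbb3 (-1.46 ± 0.46) and Fgfr3 (-1.19 ± 0.38) were called lower too, but Lifr turned to 0.21 at the same sum. The calls of Lifr and Erbb3 were lost without each of the 4 libraries in turn (-1.24 to -1.1 and -1.5 to -1.42), and that of Fgfr3 was lost without Hep-Org replicate 1 (-0.94), without 24 h replicate 1 (-1.21) and without 24 h replicate 2 (-1.16). The list median also turned at the same sum, 4 genes were called higher without Hep-Org replicate 1 or 24 h replicate 2, and 2 or 3 were called lower in each leave-out.

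Markers of other liver cells were carried by the 24 h libraries, and in bulk samples fewer cells of a type and less RNA per cell cannot be told apart. Summed FPKM of 14 Kupffer cell genes was 22 and 1.22 in Hep-Org and 473 and 346 at 24 h, and 13 of the 14 were called lower (median -4.21, 6 held). Without Hep-Org replicates 1 and 2 in turn 8 and 6 were called, and without 24 h replicates 1 and 2 in turn 6 and 8. Clec4f, the Kupffer cell lectin, was at 0 and 0.00795 against 41.3 and 35.3 (-5.29 ± 0.90), and Vsig4 was listed at 0 in both organoid libraries against 32.2 and 24.1. Hep-Org replicate 1 still held macrophage transcripts such as Lyz2 (16.9 and 0.254 in replicates 1 and 2), whose call (-3.99 ± 1.36) was lost without Hep-Org replicate 2 (-2.08), without 24 h replicate 1 (-3.45) and without 24 h replicate 2 (-4.53). For 15 sinusoidal endothelial genes the sums were 4.69 and 4.22 against 71.8 and 92.2 (13 called lower, median -2.14, 11 held), with Eng at 0.0509 and 0.034 against 9.25 and 11 (-3.41 ± 0.48). For 17 stellate and mesenchymal genes they were 10.1 and 28.3 against 35.8 and 39.6, with 5 of 6 tested genes called lower (all 5 held) and Rgs5, a pericyte gene, higher (8.92 and 24.8 against 4.09 and 6.29, 1.39 ± 0.50). The call of Rgs5 was lost without Hep-Org replicate 2 (0.70), without 24 h replicate 1 (1.13) and without 24 h replicate 2 (1.65). Rgs5 made up most of the mesenchymal sum in organoids, since Des and Lum were near 0 there. Neutrophil genes summed to 4.83 and 1.75 against 66.3 and 22.8, lymphocyte genes to 0.187 and 0.0823 against 9.32 and 3.74, and red cell genes to 0.143 and 0.301 against 385 and 82.7. The part of these cells in the chemokine, acute-phase and endothelial differences was not tested.

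Mitochondrially encoded transcripts were lower in organoids and differed between the 24 h libraries. All 13 were tested and 9 called lower (median -3.57), but 1 call, that of mt-Nd6, held in every leave-out. It was at 669.6 and 592 FPKM in Hep-Org and 12841 and 3296 at 24 h (-3.37 ± 0.68), and mt-Co1 was at 4724 and 4409 against 69779 and 14732 (-2.81 ± 0.89). The call of mt-Co1 was lost without Hep-Org replicate 1 (-2.86), without Hep-Org replicate 2 (-2.76) and without 24 h replicate 1 (-1.69). The organoid libraries were close to each other, and 24 h replicate 1 was several times above replicate 2. Without 24 h replicate 2 all 13 were called lower, without 24 h replicate 1 only 1, and without Hep-Org replicates 1 and 2 in turn 4 and 5. With the 4 libraries alone 5 were. Nuclear copies of mitochondrial sequence may take up some of these reads, and the share of mitochondrial reads was not tested for its part in other differences.

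**Figure D5:**
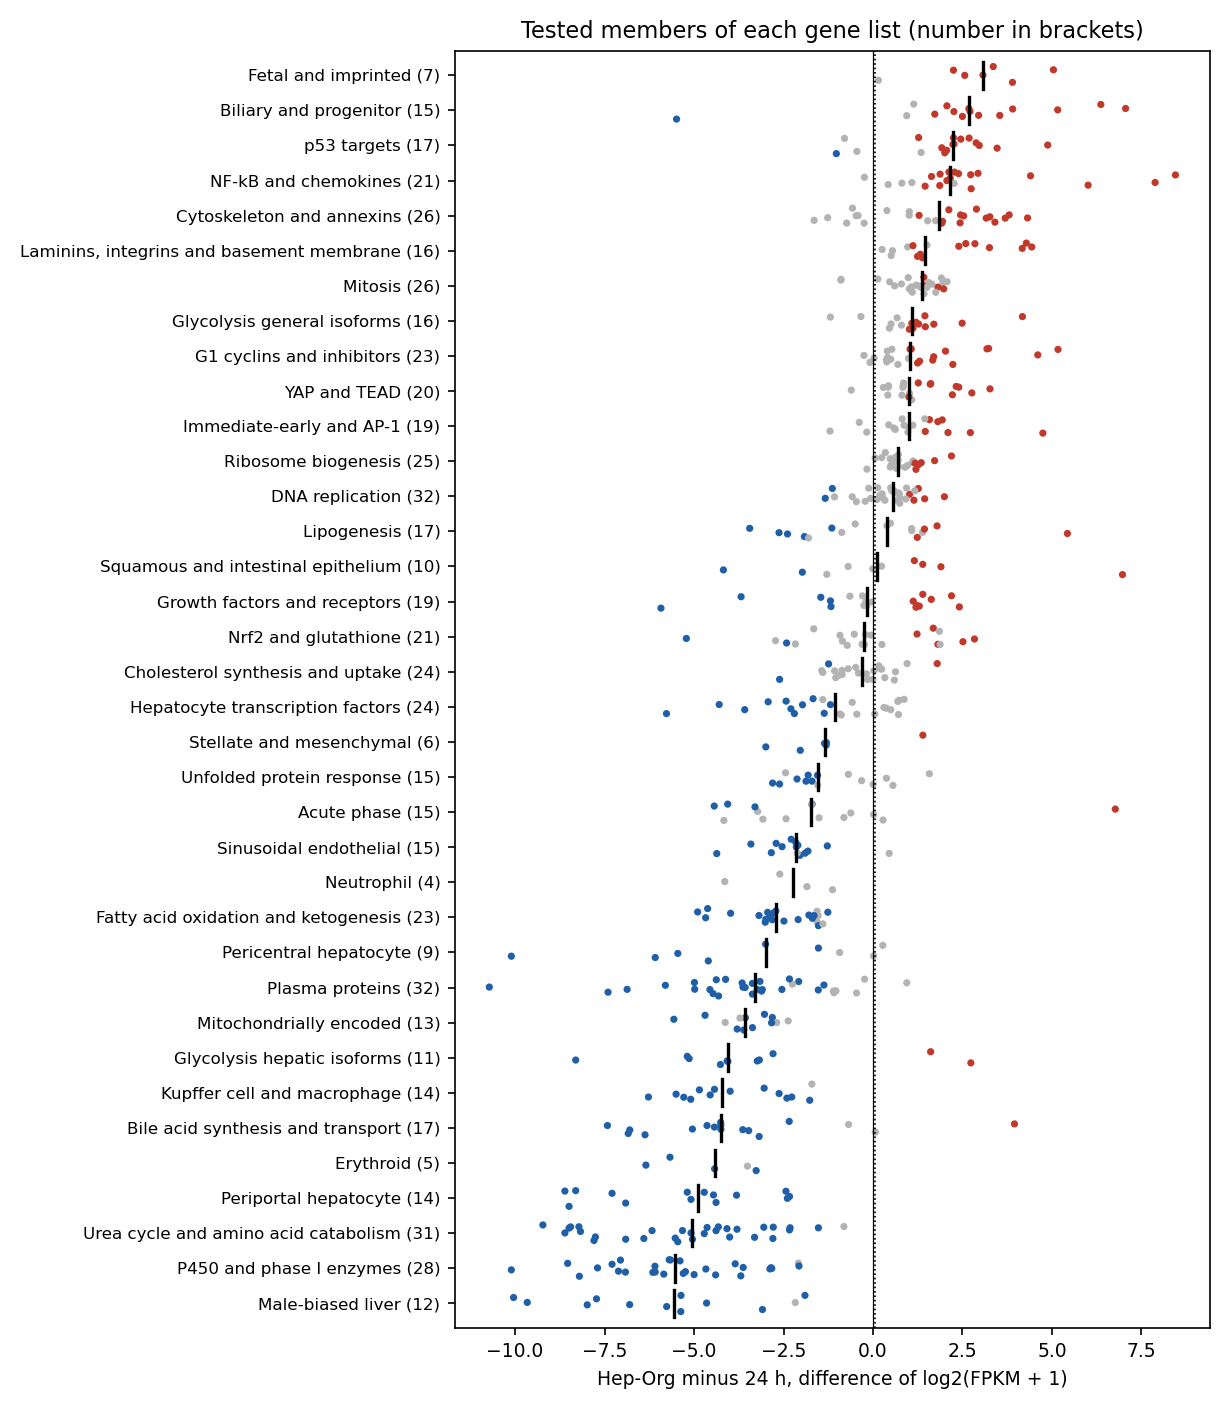
Difference between Hep-Org and 24 h on the log2(FPKM + 1) scale (horizontal) for each tested member of the lists with at least 4 tested members, 1 row per list. Red points are called higher, blue called lower and grey not called, the black bar is the list median and the dotted line the median of all genes, 0.04. P450, urea cycle and male-biased liver genes have medians below -5, and fetal, biliary, p53 and NF-kB genes have medians above 2.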

How the data were processed

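RNA sequencing values of 20 mouse libraries were used as deposited. The authors deposited 1 table of FPKM for 54532 genes, and no column was left out. The submitters' processing notes name HISAT2 2.0.5 and mm10. No source used here gives the tool that counted reads, the annotation, any filter or strandedness, so overlapping and antisense genes cannot be told apart. Symbols, positions and exon lengths came from GENCODE M21 (GRCm38) and were found for 54495 genes (all but 4 of the genes tested). FPKM multiplied by exon length fell on whole reads (within 0.05) in 97.9% to 98.7% of the values of at most 20 reads, from which depth (13.7 to 41.4 M reads per library) was recovered. The depth implied by the FPKM value of 1 read differed from the recovered depth (recovered over implied was 0.524 and 0.478 in Hep-Org and 1.29 and 0.939 at 24 h), so the deposited FPKM carry a scaling between libraries that no source used here describes.

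Genes with FPKM of at least 1 in 2 of the 4 libraries were tested on log2(FPKM + 1), a scale computed here from the deposited FPKM, with limma 3.58.1 (trend and robust options) in R 4.3.3, fitted to all 20 libraries with 1 mean per group (10 residual and 3.33 prior degrees of freedom), with Benjamini-Hochberg adjustment. The procedure was tested on simulated data. Replicate numbers did not pair the groups: the correlation of deviations for Hep-Org and 24 h was -0.03, and 6 of 45 pairs of groups were over 0.1. Intervals are 95% limma intervals. Alternatives were another pseudocount, other filters and scalings, the 4 libraries alone, a replicate block, a submission term, limma-voom on recovered reads, and leaving out each library. Promoters came from RefSeq (GRCm38.p6). Python 3.11.15, numpy 2.4.6, pandas 2.3.3 and matplotlib 3.10.9 made tables and figures.

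The comparison, gene lists and tests were chosen with earlier results of these data known. Named genes were the 12 largest increases and 12 largest decreases among called genes with a mean of at least 5 FPKM in the higher group and no overlap (predicted genes, pseudogenes and mitochondrial genes left out), up to 4 genes of largest t per list and called members against the majority of their list, and all members of the cell cycle, transcription factor, glycolysis, sex-linked and biliary lists. A search for abundant genes with a 95% interval within 0.5 in either direction found none. The other genes named, such as Alb, Ttr, Hp, Ambp, Mdm2, Scd1, Saa1, Egfr and Rela, were chosen after their values were seen. Some list members that the rule names are not reported here.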

Additional observations from a re-analysis of the deposited data

How the results depend on the processing

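Most calls held their direction, but their number moved with scaling, filter and library. At 24 h 3117 genes were called (1389 higher, 1728 lower). The count was 7447 when libraries were rescaled to the same sum (6640 and 807), and 2016 with a filter of 5 FPKM, which tests fewer genes (712 higher). At 48 h the count of 2811 became 7984 and 1872 under the same settings, and at 72 h 2891 became 6163 and 1839. The replication median of 0.55 became 2.15 at the same sum. The mitosis median of 1.36 became 3.24 at the same sum, 2.76 with a pseudocount of 0.1, 0.59 with a filter of 5 FPKM and 3.29 with limma-voom on recovered reads. Leaving out each library gave 2358 to 2629 calls at 24 h (1128 to 1316 higher, 1230 to 1409 lower), 2116 to 2361 at 48 h and 2263 to 2469 at 72 h, with medians of 0.24 to 0.91 for replication and 1.18 to 1.52 for mitosis. With a replicate block 3047 genes were called (1371 higher, 1676 lower), and since the numbers did not pair the samples this says nothing of stability. A submission term gave 2929 calls, median-ratio scaling 3087, a pseudocount of 0.1 3916, no filter 2845, the 4 libraries alone 3357 and limma-voom 3939. The median-ratio factors were 1.034 and 1.022 in Hep-Org and 1.024 and 1.019 at 24 h. The deposited values were thus already close to that scale, and this setting could change little and says nothing of stability. Rescaling to the same sum turned the direction of 26 of the 217 tested genes named, 13 of them called on at least one of the scales: Acads to 0.34, Ambp to 1.41, Calr to 0.0919, Gc to 0.12, Gins1 to 0.0518, Glul to 0.0681, Hadha to 0.0298, Itih2 to 0.27, Lifr to 0.21, Met to 1.26, Perp to 1.19, Sesn1 to 0.0435 and Tm7sf2 to 0.22. The other 13, not called on either scale, were Abcc3, Ccnf, Cdkn2d, Ddit3, Egfr, Fas, Hnf4a, Hp, Krt8, Krt18, Ldha, Nqo1 and Pttg1. It turned the sign of the medians of 5 of 38 lists, and that of 0 lists when the median of all genes was subtracted, which such a rescaling leaves nearly fixed by construction. The other settings turned no named gene that was called with or without them. Of genes not called, limma-voom turned 5, leaving out Hep-Org replicate 1 or 2 turned 3 and 4 (among them Fos, to -0.39, and Krt8, to 0.22), and leaving out 24 h replicate 1 or 2 turned 5 and 3 (among them Krt18, to 1.28, and Ccn1, to -0.23). Median-ratio scaling and a submission term each turned 1, Atf4, whose difference was near 0. With 2 libraries per group and 15.2 to 24.3 M reads, differences between genes near 1 FPKM were the least certain.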
